A study of Homo sapiens with 36 samples.

Results

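The 8 genes described here, measured in 36 RNA-seq libraries of human osteosarcoma cells, were picked by symbol under the heading of inflammatory cytokines repressed by glucocorticoids. They were picked with earlier results of these data known. The rule named 9 symbols, of which 8 had a row among the 15186 genes of the table: CXCL8, CCL2, CSF2, LIF, IL11, IL6, BCL2A1 and VCAM1. CXCL1 was not analysed here. The name cytokine fits 6 of the 8, which encode secreted proteins; BCL2A1 encodes an intracellular survival protein and VCAM1 an adhesion molecule of the cell surface.

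The cells were U2OS, an osteosarcoma line, stably transfected with glucocorticoid receptor alpha (GR), so that cells of every group carry the receptor transgene. Each culture received siRNA and, 48 h later, 8 h of 100 nM dexamethasone (dex), a synthetic glucocorticoid, or ethanol as vehicle. The siRNA conditions are named as in the labels: siHic5siNS, siCHD9siNS and siBRMsiNS pair an siRNA against Hic-5 (gene TGFB1I1, a GR coregulator), CHD9 or BRM (gene SMARCA2, an ATPase of SWI/SNF complexes) with the control siRNA siNS, siCHD9siHic5 and siBRMsiHic5 combine 2 siRNAs against targets, and siNSsiNS holds the control siRNA alone. With dex and vehicle this gives 12 groups of 3 libraries, and per the labels the replicates are biological and were made on different days. The study asked how gene regulation by dex depends on CHD9 and BRM once Hic-5 is removed.

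Glucocorticoids bind GR, which enters the nucleus, raises transcription at genes with glucocorticoid response elements, and lowers transcription at many inflammatory genes whose promoters are driven by NF-κB and AP-1. Transcripts of several cytokines also carry AU-rich elements in the 3′ untranslated region, often built from the pentamer ATTTA, through which proteins such as tristetraprolin (gene ZFP36) speed their decay. CXCL8 and CCL2 encode chemokines for neutrophils and monocytes, CSF2 encodes the growth factor GM-CSF, LIF, IL11 and IL6 encode cytokines that signal through the shared receptor chain gp130, and osteoblast-lineage cells are a known source of several of these proteins.

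Promoter sequences, from 250 bases before to 50 after the start, were taken from RefSeq on build GRCh38.p14, whose table held 6 of the 8 genes; CCL2 and LIF were not among them. The 5 printed here show which of the genes below hold κB or AP-1 matches near the start and which hold neither, and each reads 5′ to 3′ on the gene's own strand. Capitals mark matches on either strand to the κB consensus, to AP-1 (TGANTCA) or to the TATA box (TATAAA).
CXCL8, chr4:73740319-73740618, plus strand: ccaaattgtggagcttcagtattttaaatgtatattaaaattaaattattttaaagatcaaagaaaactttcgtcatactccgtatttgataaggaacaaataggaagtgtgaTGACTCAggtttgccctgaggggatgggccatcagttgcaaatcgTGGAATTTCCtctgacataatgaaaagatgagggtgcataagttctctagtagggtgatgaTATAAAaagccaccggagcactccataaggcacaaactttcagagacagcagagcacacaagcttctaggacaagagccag
CSF2, chr5:132073539-132073838, plus strand: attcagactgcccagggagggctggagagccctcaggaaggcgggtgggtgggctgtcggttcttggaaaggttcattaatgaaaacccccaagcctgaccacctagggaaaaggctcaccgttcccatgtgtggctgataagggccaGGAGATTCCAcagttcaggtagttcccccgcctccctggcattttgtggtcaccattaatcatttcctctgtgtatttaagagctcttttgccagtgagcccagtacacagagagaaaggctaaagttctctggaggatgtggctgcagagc
IL6, chr7:22726950-22727249, plus strand: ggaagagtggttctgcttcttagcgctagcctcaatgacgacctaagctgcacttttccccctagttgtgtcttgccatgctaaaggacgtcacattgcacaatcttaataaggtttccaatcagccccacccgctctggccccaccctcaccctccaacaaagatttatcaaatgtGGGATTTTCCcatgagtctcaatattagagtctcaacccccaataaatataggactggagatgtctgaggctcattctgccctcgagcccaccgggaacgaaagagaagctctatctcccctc
IL11, chr19:55370414-55370713, minus strand: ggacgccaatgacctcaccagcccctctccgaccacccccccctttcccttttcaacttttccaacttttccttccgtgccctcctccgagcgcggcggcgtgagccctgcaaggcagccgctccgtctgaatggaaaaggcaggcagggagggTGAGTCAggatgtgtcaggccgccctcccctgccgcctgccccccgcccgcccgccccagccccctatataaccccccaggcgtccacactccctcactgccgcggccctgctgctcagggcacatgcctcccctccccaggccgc
BCL2A1, chr15:79971147-79971446, minus strand: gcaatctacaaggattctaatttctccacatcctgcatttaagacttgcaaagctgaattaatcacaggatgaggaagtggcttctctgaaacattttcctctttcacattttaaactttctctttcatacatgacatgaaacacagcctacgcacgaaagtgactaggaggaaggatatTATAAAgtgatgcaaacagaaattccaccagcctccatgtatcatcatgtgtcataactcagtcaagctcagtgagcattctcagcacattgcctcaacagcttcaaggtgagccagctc
The κB consensus matched in 4 of the 6 promoters, CXCL8, CSF2, IL6 and VCAM1, against 20.1% of 35116 promoters of the same length. In CXCL8 it began 92 bases before the start, with an AP-1 match 137 bases before it. AP-1 matched in CXCL8 and IL11, against 7.71% of promoters. The C/EBP motif TTNNGCAA matched in IL6, against 10.5% of promoters, and overlapped no other match. The glucocorticoid response element, searched as GNACA and TGTNC with any 3 bases between, matched in 0 of the 6, against 0.390% of all promoters. TATAAA matched in CXCL8, BCL2A1 and VCAM1, in the last with overlapping matches on both strands, against 11.5% of promoters. These matches describe the letters in the window and were not tested for binding.

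The genes lie on separate chromosomes, in GENCODE v29 on build GRCh38, and none is a neighbour of another. CXCL8 spans chr4:73740506-73743716 and CCL2 spans chr17:34255218-34257203, both on the plus strand. CSF2 spans chr5:132073790-132076170 and IL6 spans chr7:22725884-22732002, both on the plus strand. LIF spans chr22:30240447-30246851, IL11 spans chr19:55364389-55370463 and BCL2A1 spans chr15:79960889-79971446, these 3 on the minus strand, and VCAM1 spans chr1:100719742-100739045 on the plus strand. ATTTA occurred at least once in the annotated 3′ untranslated region of 7 of the 8, against 69.8% of 13241 genes, and at least 5 times in 5 of the 8, against 29.5%. Per length the element was densest in CSF2, with 25.2 per kb, a density that 0.0755% of genes reached, followed by IL6 with 14.0 and CXCL8 with 7.19 per kb. BCL2A1 held 0. Reads were counted by gene, with the counter, its annotation and its use of strand not given in the sources used here, so antisense reads cannot be separated from those of the genes.

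Library totals ran from 27442282 to 47148257 counts. The transcripts of the siRNA targets were lower where labelled for Hic-5 and BRM: in vehicle, TGFB1I1 averaged 7.06 ± 3.57 CPM (counts scaled to library size) with siHic5siNS against 28.4 ± 0.774 with siNSsiNS, and SMARCA2 8.76 ± 1.18 with siBRMsiNS against 30.3 ± 4.75 (SD, n = 3 each). CHD9 in vehicle was lower with siCHD9siNS, at 60.1 ± 8.94 against 88.6 ± 9.49 CPM. In dex it was 77.0 ± 16.6 against 90.2 ± 8.07 CPM, with overlapping libraries (58.2 to 89.2 and 81.5 to 97.4 CPM). Without its siRNA, CHD9 in vehicle was also lower, at 68.1 ± 11.4 CPM with siHic5siNS and 45.2 ± 5.46 with siBRMsiHic5. It was higher in the vehicle libraries labelled siCHD9siHic5, at 123 ± 17.9 CPM. No difference below is therefore ascribed to loss of CHD9 in either siCHD9 condition. The ribosomal RNA gene RNA28S5 took 0.324% to 7.51% of the counts and was over 1% in 11 libraries: replicates 2 and 3 of siBRMsiNS and siBRMsiHic5, replicate 3 of siHic5siNS, and vehicle replicate 3 of siNSsiNS. Results are given with and without these libraries where the call changes. Markers of osteoblasts and mesenchyme, 6 of 8 of them in the table, summed to 3980 to 7848 CPM in dex and 4045 to 7724 CPM in vehicle libraries. Leukocyte markers, 5 of 9, summed to 7.95 to 22.1 CPM in dex and 9.30 to 25.4 CPM in vehicle libraries, and the 5 did not include PTPRC, CD14 or CD3E. The 5 endothelial markers summed to 4.28 to 21.7 CPM in dex and 1.96 to 16.6 CPM in vehicle libraries, and 3 of 5 epithelial markers to 106 to 458 and 129 to 451 CPM.

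The genes differed widely in level. Per kilobase of merged exons, the median of LIF was 32.3 CPM per kb over the 18 dex libraries and 53.0 over the 18 vehicle libraries, the highest of the 8. CXCL8 followed with 7.16 in dex and 18.6 in vehicle libraries, near IL11 with 6.83 and 15.7 and CCL2 with 6.14 and 16.1. Their ranges over libraries overlap, so no order among these 3 is drawn. CSF2 had 3.22 in dex and 9.90 in vehicle libraries and BCL2A1 2.43 and 4.05. IL6, at 0.229 and 0.390, and VCAM1, at 0.0505 and 0.0449 CPM per kb, were close to the detection limit. IL6 passed 1 CPM in 8 vehicle and 0 dex libraries and VCAM1 in 4 vehicle and 0 dex libraries, so both entered the tests only through vehicle libraries. The counts over the 8 genes below are therefore descriptions.

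The dex response averaged over the 6 siRNA conditions was lower than 0 for each of the 8 genes. As fitted group means without a pair block, the 7 that passed the test fell between 1.58-fold, for LIF, and 5.02-fold, for CXCL8. The size for CXCL8 depends on the summary, since the median of its 18 pairs was 65.2% of vehicle, a smaller drop than for CSF2, CCL2, IL11 and BCL2A1. All comparisons used edgeR's quasi-likelihood test on the counts with Benjamini-Hochberg adjustment over 15179 genes and a call at an adjusted p under 0.05. This was fitted once with the 12 group means, and again with a block for each of the 18 pairs of a dex and a vehicle library that share siRNA condition and replicate number. Without the block 7 of the 8 fell, against 1.73% of all tested genes that fell, and with it 8 of 8, against 12.9%. The median log2 change of the 8 was -1.09 without the block, against -0.0048 for all tested genes. Because the 8 were picked with earlier results of these data known, these counts and medians are descriptions. In bulk RNA, fewer cells making a transcript and less transcript per cell cannot be told apart.

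**Figure D1:**
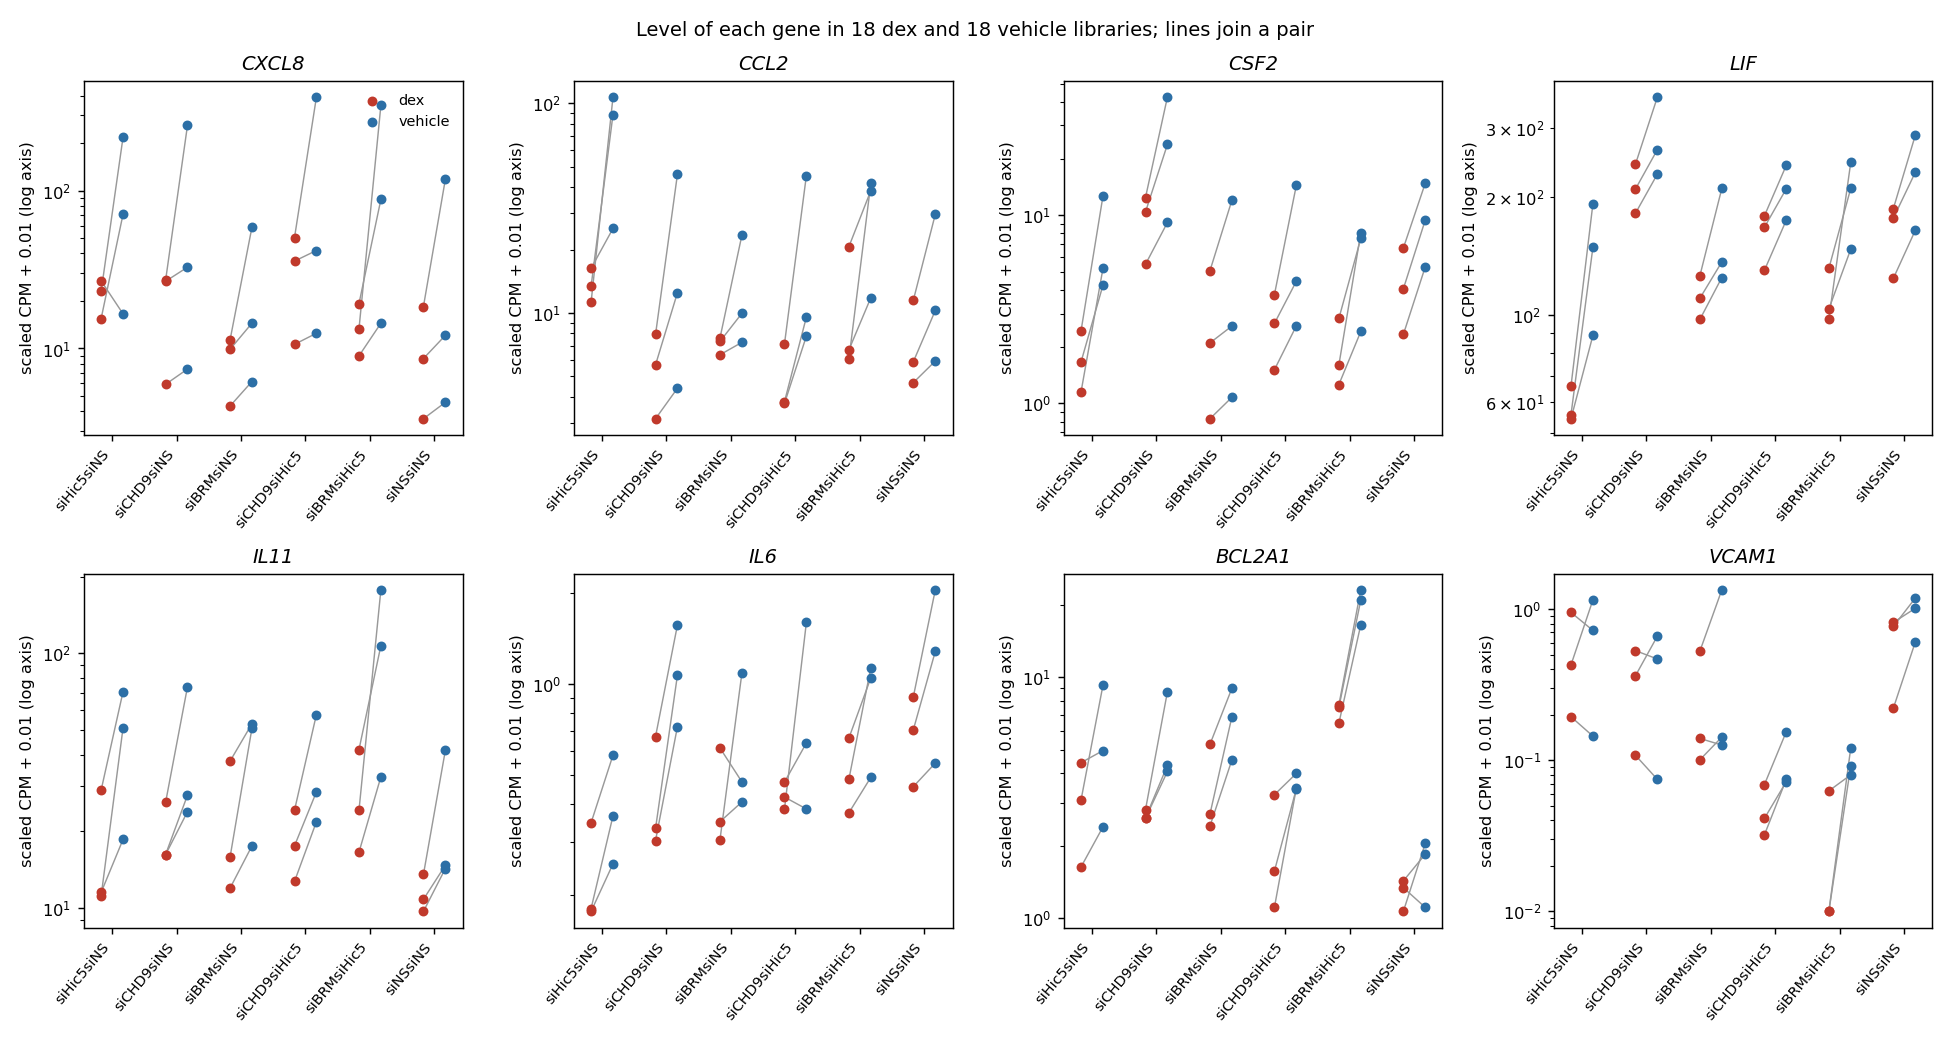
Scaled CPM of the 8 genes (log axis, 0.01 added so that zeros show) in each of the 36 libraries, by siRNA condition, with dex libraries in red left of vehicle libraries in blue and a line joining each of the 18 pairs. CCL2, CSF2, LIF and IL11 were lower with dex in 18 of 18 pairs, and BCL2A1 in vehicle was lower with siNSsiNS than with each other condition.

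Among the chemokines, CXCL8 ranged from 3.58 to 50.4 CPM (median 14.3) in 18 dex libraries, against 4.55 to 391 CPM (median 37.2) in 18 vehicle libraries. The groups overlapped widely, and CXCL8 was lower with dex in 17 of 18 pairs, the exception being replicate 1 of siHic5siNS with 26.8 CPM in dex and 16.6 CPM in vehicle. Its mean log2 change was -2.33 ± 0.52 (SE, adjusted p = 0.00412) without and -1.59 ± 0.42 (adjusted p = 0.0135) with the pair block. The call was lost with limma on log2(CPM + 0.5), at -1.45 and adjusted p = 0.113, and without the 11 libraries rich in RNA28S5, at -2.75 and adjusted p = 0.0806, or -2.12 and 0.0767 with the block. CCL2, the monocyte chemokine MCP-1, ranged from 3.13 to 20.8 CPM (median 6.90) in dex and 4.38 to 107 CPM (median 18.03) in vehicle libraries. It was lower in 18 of 18 pairs and fell by 1.65 ± 0.31 on the log2 scale without the block (adjusted p = 0.00057) and by 1.44 ± 0.24 with it (adjusted p = 0.000614).

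CSF2 encodes a growth factor for granulocytes and macrophages. It ranged from 0.818 to 12.4 CPM (median 2.54) in dex and 1.07 to 42.4 CPM (median 7.79) in vehicle libraries. The ranges overlapped, and within pairs CSF2 was lower with dex in 18 of 18. Its mean log2 change was -1.46 ± 0.31 without (adjusted p = 0.0022) and -1.34 ± 0.12 with the block (adjusted p = 3.76e-07).

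Of the gp130 cytokines, LIF, which maintains stem cells and acts on bone, was the most abundant and showed the smallest fold change. It ranged from 54.5 to 243 CPM (median 128) in dex and 88.8 to 360 CPM (median 210) in vehicle libraries, was lower in 18 of 18 pairs, and changed by -0.66 ± 0.10 on the log2 scale (adjusted p = 4.42e-05). IL11, a cytokine of mesenchymal cells, ranged from 9.68 to 41.8 CPM (median 16.2) in dex and 14.3 to 177 CPM (median 37.1) in vehicle libraries. It too was lower in 18 of 18 pairs and changed by -1.24 ± 0.25 (adjusted p = 0.00124). IL6 had only 6 to 29 counts in a dex library and 9 to 61 in a vehicle library, which is 0.167 to 0.897 CPM (median 0.393) and 0.244 to 2.03 CPM (median 0.669). It was lower in 16 of 18 pairs and changed by -0.92 ± 0.22 (adjusted p = 0.00697). IL6 was kept by the filter through vehicle libraries alone, so its value is a description. With no filter the value and its adjusted p were the same to the digits given, but the filter left out only 7 genes, so that fit is not a separate check.

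BCL2A1, an anti-apoptotic relative of BCL2 and a known NF-κB target, ranged from 1.06 to 7.66 CPM (median 2.65) in dex and 1.10 to 23.0 CPM (median 4.41) in vehicle libraries. It was lower in 17 of 18 pairs, with replicate 2 of siNSsiNS the exception, and changed by -0.95 ± 0.17 on the log2 scale (adjusted p = 0.000347). VCAM1, through which leukocytes adhere to endothelium and stroma, had 0 to 33 counts in a dex library and 2 to 42 in a vehicle library. It was lower in 13 of 18 pairs. Its mean log2 change was -0.95 ± 0.49 without the block (adjusted p = 0.346) and -0.91 ± 0.29 with it (adjusted p = 0.0194), so its call rests on the pairing. VCAM1 was kept by the filter through vehicle libraries alone, and most of its libraries hold few counts, so this value is a description. With the block it was not called without replicate 1 of siBRMsiNS (adjusted p = 0.0592). Without replicate 1 of siCHD9siHic5 it passed only just, at an adjusted p that rounds to 0.05. Without replicate 1 of siNSsiNS too few libraries passed 1 CPM for VCAM1 to be tested.

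**Figure D2:**
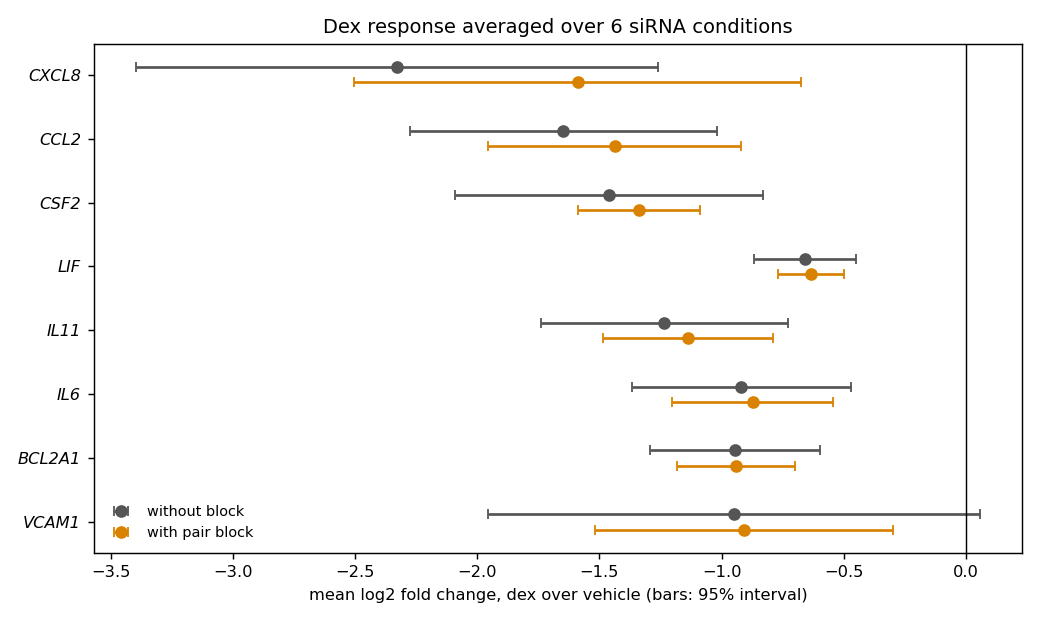
Mean log2 fold change of dex over vehicle across the 6 siRNA conditions for each gene (points) with its 95% interval (bars), from the edgeR fit without a block (grey) and with a block per pair (orange). The interval of VCAM1 crossed 0 without the block, from -1.96 to 0.06, and those of the other genes did not in either fit.

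Over the 8 genes and 18 pairs, 135 of 144 member-by-pair values were lower with dex. All 8 genes were lower together in 11 of the 18 pairs, including 3 of 3 pairs with siBRMsiHic5. There VCAM1 had 0, 0 and 2 counts in dex against 3, 3 and 3 in vehicle, too few to read a direction. The same holds for pairs 2 and 3 of siCHD9siHic5, with 1 count against 2 and 1 against 3. CCL2, CSF2, LIF and IL11 were lower in every pair, as were 0.982% of tested genes, and 7 of the 8 in 16 or more pairs, as were 4.68%. The median of CSF2 in dex was 43.3% of its vehicle partner, that of CCL2 46.5%, that of BCL2A1 52.5% and that of IL11 54.4%. That of IL6 was 56.9%, that of CXCL8 65.2% and that of LIF 72.3%. For VCAM1 it was 66.6%, but only over the pairs with more than 3 counts in vehicle. Over all 18 pairs its median log2 change, with 0.5 CPM added, was -0.16.

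Within single siRNA conditions, with 3 libraries a group, fewer of the genes passed. With siHic5siNS, LIF was the 1 gene that fell without the block, against 0.152% of tested genes. Its 3 dex libraries held 54.5, 66.0 and 55.8 CPM, against 88.8, 193 and 149 CPM in vehicle, without overlap, as for 5.41% of tested genes lower with dex. The log2 change of LIF was -1.29 ± 0.25 (SE, adjusted p = 0.00551). The call was lost without vehicle replicate 2, at -1.02 and adjusted p = 0.0793, without the libraries rich in RNA28S5, at adjusted p = 0.0878, or when those 2 groups were fitted alone, at adjusted p = 0.179. With the block, 4 genes fell with siHic5siNS, against 4.45% of tested genes: LIF by 1.23, CSF2 by 2.01, CCL2 by 2.23 and IL11 by 1.41 on the log2 scale, with adjusted p = 0.000202, 0.000518, 0.0268 and 0.0459. CCL2 there held 16.3, 11.2 and 13.4 CPM in dex against 25.3, 107 and 88.5 CPM in vehicle libraries. Its call was lost without pair 2 or pair 3, at adjusted p up to 0.196, and that of IL11 under each pair left out, at up to 0.234.

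With siNSsiNS, 0 of the 8 genes passed the edgeR test without the block, as did 0% of tested genes in the lower direction, and 0 had an unadjusted p under 0.05. DESeq2 and limma also called 0 of the 8 with siNSsiNS, siCHD9siNS, siBRMsiNS and siCHD9siHic5, and limma 0 with siBRMsiHic5. With the block CSF2 fell by 1.18 (adjusted p = 0.0245), against 0.600% of tested genes that fell. CSF2 held 4.05, 6.68 and 2.31 CPM in dex libraries, against 9.42, 14.8 and 5.31 CPM in their vehicle partners. The groups overlap while each pair shows a similar ratio, and the call did not survive leaving out any pair, with adjusted p up to 0.179. CXCL8 under siNSsiNS held 8.62, 18.4 and 3.58 CPM in dex and 12.1, 118 and 4.55 CPM in vehicle libraries, so that replicate 2 alone carried a large difference.

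With siCHD9siNS, 0 genes passed without the block, where 0.0198% of tested genes were called lower. An unadjusted p under 0.05 was reached by 3 of the 8. Here and below, no share of all tested genes is given for counts at an unadjusted p, so these counts are not read as results about the 8 genes. With the block 3 fell, against 12.8% of tested genes: CSF2 by 1.26, IL6 by 1.39 and BCL2A1 by 1.02 (adjusted p = 0.0019, 0.00835 and 0.0117). IL6 and BCL2A1 were no longer called without pair 1, at adjusted p = 0.0894 and 0.199. Since the filter kept IL6 through vehicle libraries alone, its value is a description. With siBRMsiNS, 0 passed without the block, as did 0% of tested genes in the lower direction, and 1 of the 8 had an unadjusted p under 0.05. With the block BCL2A1 fell by 0.98 (adjusted p = 0.0426), against 1.52%. That call was lost under each pair left out, at adjusted p up to 0.372.

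In the libraries labelled siCHD9siHic5, 0 passed without the block, where 0.0264% of tested genes were called lower. An unadjusted p under 0.05 was reached by 2 of the 8. CSF2 fell by 1.23 with the block (adjusted p = 0.0217), against 1.36%, and was not called without pair 2, at -0.76 and adjusted p = 0.317. With siBRMsiHic5, 0 passed in edgeR without the block, where 0.00659% of tested genes were called lower. An unadjusted p under 0.05, a cut to which that share does not refer, was reached by 5 of the 8. DESeq2 called 1, BCL2A1, and the share of all tested genes called by DESeq2 is not given here. With the block 4 fell, against 1.72%: BCL2A1 by 1.48, CSF2 by 1.59, LIF by 0.84 and IL11 by 1.74 on the log2 scale, with adjusted p = 0.000892, 0.00504, 0.00519 and 0.0193. BCL2A1 held 7.49, 6.44 and 7.66 CPM in dex, against 20.9, 16.5 and 23.0 CPM in vehicle libraries, a gap wider than the range within either group. LIF held 97.8, 104 and 132 CPM in dex and 246, 147 and 211 CPM in vehicle libraries. Both genes were lower without overlap of the groups, as were 3.27% of tested genes. Without pair 1, CSF2 and IL11 were not called, at adjusted p = 0.0685 and 0.129, and IL11 was not called without pair 3. VCAM1 totalled 2 counts over the 3 dex libraries and 9 over the 3 vehicle libraries with siBRMsiHic5, and no fold is given for it. Leaving out the pairs rich in RNA28S5, which leaves 1 pair with siBRMsiNS and with siBRMsiHic5, the blocked calls of CCL2 and IL11 with siHic5siNS were lost, at adjusted p = 0.246 and 0.147. So were those of BCL2A1 with siBRMsiNS and siBRMsiHic5, at 0.145 and 0.137, and those of CSF2 with siCHD9siHic5, siBRMsiHic5 and siNSsiNS, at 0.0645, 0.101 and 0.176. The log2 changes there were not smaller where pairs were dropped from siBRM conditions: BCL2A1 gave -1.34 with siBRMsiNS and -1.48 with siBRMsiHic5, and CSF2 -2.33 with siBRMsiHic5. CCL2 and IL11 with siHic5siNS gave -1.95 and -1.02.

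**Figure D3:**
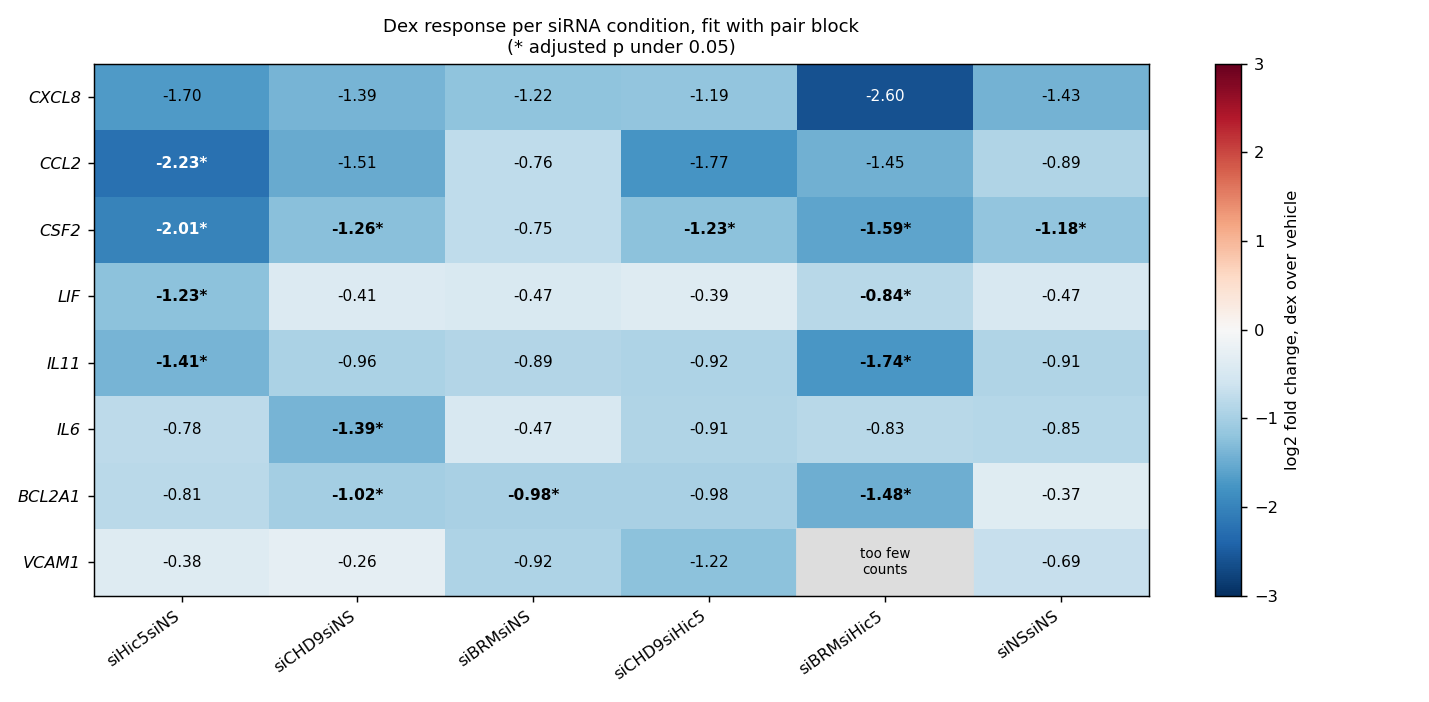
Log2 fold change of dex over vehicle for each gene (rows) in each siRNA condition (columns, the control siNSsiNS last) in the fit with the pair block; stars mark adjusted p under 0.05. Values run from -0.26 for VCAM1 with siCHD9siNS to -2.60 for CXCL8 with siBRMsiHic5, all below 0, and the grey cell held too few counts for a fold.

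Whether the dex response itself differed between siRNA conditions was tested as a difference of responses. In each of the 5 such comparisons 0 of the 8 genes were called by edgeR, with or without the block, and 0 by DESeq2 or limma. Without the block 0.00659% of tested genes were called for siCHD9siNS against siNSsiNS and 0% in the other 4 comparisons. LIF alone had an unadjusted p under 0.05. With siHic5siNS its response was 0.76 lower than with siNSsiNS on the log2 scale with the block (difference -0.76, 95% interval -1.23 to -0.29, adjusted p = 0.345), where 0.178% of tested genes were called in either direction. With siCHD9siHic5 it was higher than with siHic5siNS by 0.83 (interval 0.36 to 1.30, adjusted p = 0.284), where 0.132% were called in either direction. CSF2 gave -0.83 (interval -1.70 to 0.04) and 0.78 (interval -0.12 to 1.68) in the same 2 comparisons. Both comparisons use the siHic5siNS libraries, so their opposite signs are not independent. For siBRMsiHic5 minus siHic5siNS, LIF gave 0.39 (interval -0.08 to 0.86) and BCL2A1 -0.67 (interval -1.42 to 0.09), where 0.198% of tested genes were called in either direction. The siCHD9siNS and siBRMsiNS responses differed from that with siNSsiNS by 0.06 (interval -0.40 to 0.52) and 0.01 (interval -0.46 to 0.47) for LIF, where 4.12% and 0% of tested genes were called. For CXCL8 the interval ran from -3.20 to 3.26 in the comparison of siCHD9siNS, so a difference of several fold in either direction was not detectable at this replication.

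The siRNAs also moved the basal levels, compared here among vehicle libraries without the block. BCL2A1 was higher than with siNSsiNS in each of the 5 other conditions, without overlap of the groups. As a background, 29.6% of tested genes were higher without overlap with siHic5siNS, 25.4% with siCHD9siNS, 12.3% with siBRMsiNS, 28.5% with siCHD9siHic5 and 28.5% with siBRMsiHic5. It held 20.9, 16.5 and 23.0 CPM with siBRMsiHic5, against 2.04, 1.10 and 1.84 CPM with siNSsiNS, a log2 difference of 3.60 ± 0.45 (adjusted p = 5.74e-07), and that call held without any single library. Leaving out the RNA28S5-rich libraries leaves 1 siBRMsiHic5 vehicle library, at 3.73 and adjusted p = 0.000154, where that library is assumed to vary like the other groups. It held 6.84, 4.52 and 8.98 CPM with siBRMsiNS, at 2.03 ± 0.43 (adjusted p = 0.0115). That call was lost without siBRMsiNS replicate 3 or siNSsiNS replicate 1 or 2, at adjusted p = 0.120, 0.0735 and 0.0833, without the RNA28S5-rich libraries, at 2.12 and adjusted p = 0.189, and with these 2 groups fitted alone, at 0.289.

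BCL2A1 held 8.69, 4.30 and 4.05 CPM with siCHD9siNS, higher by 1.77 ± 0.43 on the log2 scale (adjusted p = 0.00234). With siHic5siNS it held 4.95, 2.38 and 9.24 CPM and was higher by 1.74 ± 0.43 (adjusted p = 0.00126). The difference with siHic5siNS was 1.22 without the RNA28S5-rich libraries and no longer called, at adjusted p = 0.0604. With siCHD9siHic5 it held 3.44, 3.98 and 3.46 CPM and was higher by 1.12 ± 0.43 (adjusted p = 0.0288), a call lost without siNSsiNS replicate 2, at adjusted p = 0.125, or siCHD9siHic5 replicate 2, at 0.0695. The 5 comparisons share the same 3 siNSsiNS libraries. Against siHic5siNS, BCL2A1 was higher with siBRMsiHic5 by 1.86 ± 0.41 (adjusted p = 0.000426), without overlap, where 25.2% of tested genes were called higher and 29.8% were higher without overlap.

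**Figure D4:**
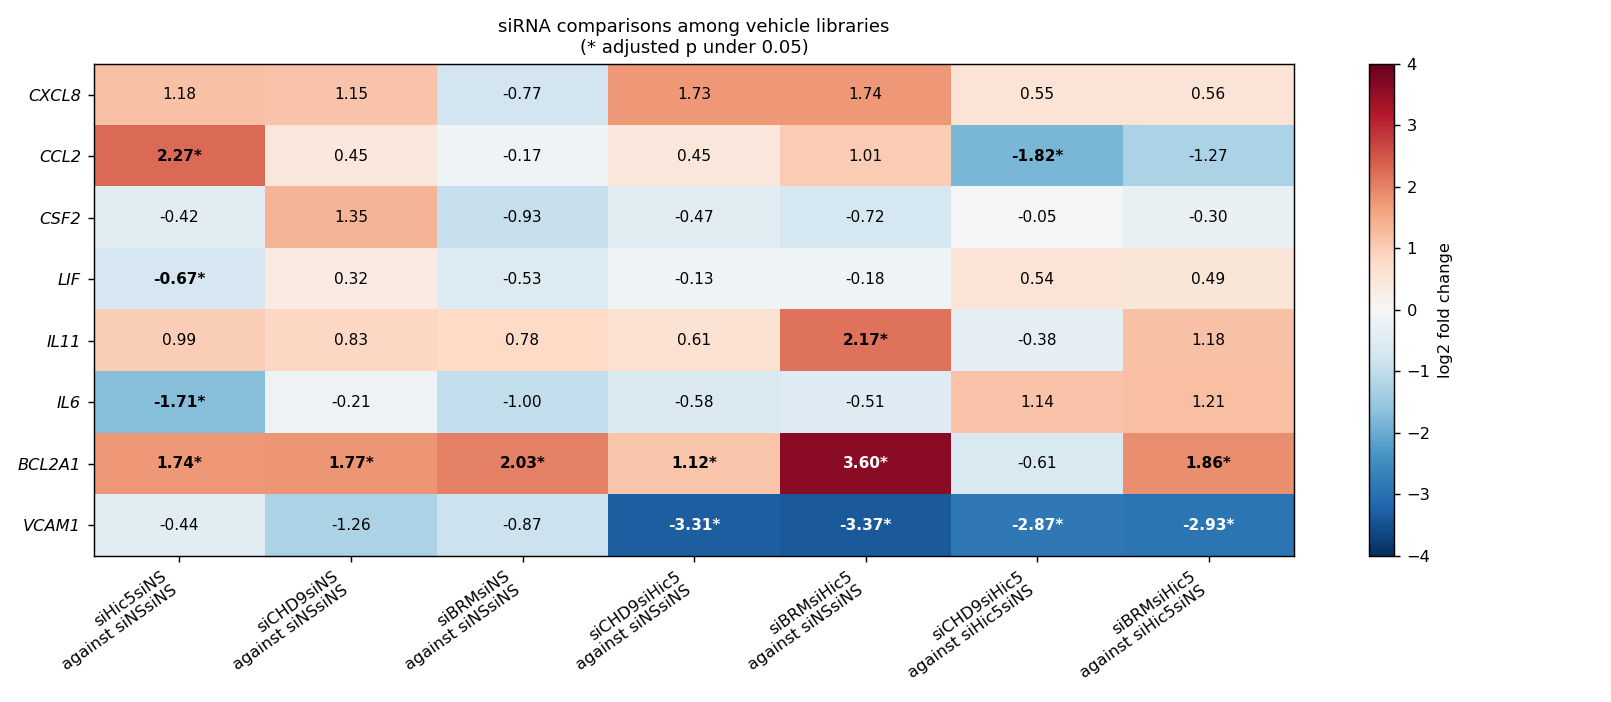
Log2 fold change of each gene (rows) between siRNA conditions among vehicle libraries, 5 against siNSsiNS and 2 against siHic5siNS (columns), from the edgeR fit without a block; stars mark adjusted p under 0.05. BCL2A1 was higher in all 5 comparisons with siNSsiNS, up to 3.60, and VCAM1 was called lower with both pairs of siRNAs that include siHic5.

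With siHic5siNS, 4 of the 8 genes were called in vehicle, which is near the background, since 25.9% of tested genes were called higher and 27.2% lower. CCL2 was higher and held 25.3, 107 and 88.5 CPM, against 10.3, 29.6 and 5.90 CPM with siNSsiNS, overlapping through 1 library of each. Its log2 difference was 2.27 ± 0.75 (adjusted p = 0.0128). That call was lost without siNSsiNS replicate 1 or 3, at adjusted p = 0.0558 and 0.0662, without siHic5siNS replicate 2, at 0.0536, and without the RNA28S5-rich libraries, at 1.73 and adjusted p = 0.145. LIF was lower, at 88.8, 193 and 149 CPM with siHic5siNS against 231, 287 and 165 CPM with siNSsiNS, by -0.67 ± 0.25 (adjusted p = 0.0254), and IL6 by -1.71 ± 0.53 (adjusted p = 0.0079) at 0.356, 0.571 and 0.244 against 1.27, 2.03 and 0.537 CPM. In both genes 1 or more libraries of the groups overlapped. The LIF call was lost without siHic5siNS replicate 1, at -0.42 and adjusted p = 0.179, without siNSsiNS replicate 1 or 2, at adjusted p = 0.0543 and 0.159, and with the 2 groups fitted alone, at 0.081. The IL6 call was lost without siNSsiNS replicate 2, at adjusted p = 0.0825. Since the filter kept IL6 through libraries where it is high, siNSsiNS replicates 1 and 2 among them, its value is a description.

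In the other single-siRNA conditions BCL2A1 was the only 1 of the 8 called, where 15.7% of tested genes were called higher with siCHD9siNS and 4.28% with siBRMsiNS. CSF2 with siCHD9siNS held 23.8, 42.4 and 9.14 CPM, against 9.42, 14.8 and 5.31 CPM with siNSsiNS, a log2 difference of 1.35 ± 0.72 that did not pass (adjusted p = 0.154). With siBRMsiHic5, 2 genes were higher and 1 lower, where 24.3% and 24.6% of tested genes were called. IL11 held 177, 32.7 and 107 CPM there, against 14.7, 41.5 and 14.3 CPM with siNSsiNS, and was higher by 2.17 ± 0.62 (adjusted p = 0.00501), with 1 library inside the siNSsiNS range.

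VCAM1 was lower in both conditions that add siHic5 to another targeting siRNA, at very low counts. The libraries that kept it in the tests were 2 of siNSsiNS, 1 of siHic5siNS and 1 of siBRMsiNS, thus among those where it is high. The values of VCAM1 that follow are therefore descriptions. With no filter the same 4 comparisons were called, but the filter left out only 7 genes, so that fit is not a separate check. Its vehicle libraries held 5, 2 and 3 counts with siCHD9siHic5 and 3, 3 and 3 with siBRMsiHic5, against 35, 30 and 21 counts with siNSsiNS and 22, 4 and 42 with siHic5siNS. VCAM1 held 24, 15 and 3 counts with siCHD9siNS and 42, 5 and 5 with siBRMsiNS, so it was also low in some single-siRNA libraries. Against siNSsiNS it was lower by -3.31 ± 0.97 on the log2 scale with siCHD9siHic5 (adjusted p = 0.00491), where 28.9% of tested genes were called lower and 23.6% higher. With siBRMsiHic5 it was lower by -3.37 ± 0.99 (adjusted p = 0.00572), a call lost without the RNA28S5-rich libraries, at -3.25 and adjusted p = 0.0777. Against siHic5siNS it was lower by -2.87 ± 0.99 with siCHD9siHic5 (adjusted p = 0.0168) and by -2.93 ± 1.01 with siBRMsiHic5 (adjusted p = 0.0161), where 25.7% and 24.2% of tested genes were called lower. Both calls were lost without siHic5siNS replicate 3, which held most of the counts, at -2.21 and -2.28 with adjusted p = 0.107 and 0.0986. The first was also lost without siCHD9siHic5 replicate 2 or 3, at 0.0517 and 0.0627, and the second without siBRMsiHic5 replicate 3, at 0.0579. Without the RNA28S5-rich libraries they were -2.22 and -1.91, at adjusted p = 0.0843 and 0.344. CCL2 was lower with siCHD9siHic5 than with siHic5siNS, at 9.56, 45.3 and 7.76 against 25.3, 107 and 88.5 CPM, by -1.82 ± 0.74 (adjusted p = 0.0435), and leaving out siHic5siNS replicate 2 or 3 or siCHD9siHic5 replicate 1 or 3 ended that call, with adjusted p up to 0.164. It was also lost without the RNA28S5-rich libraries, at adjusted p = 0.115, and with the 2 groups fitted alone, at 0.0853.

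Pooled over conditions, the replicates lay closer together with dex than with vehicle for the 6 genes other than IL6 and VCAM1. Levels of IL6 and VCAM1 lie near the 0.5 CPM added before taking logs, so no direction is read for them. The same offset lowers in part the dex SD of CSF2 and BCL2A1, whose dex medians were 2.54 and 2.65 CPM. For BCL2A1 the SDs were 0.43 with dex and 0.50 with vehicle. The direction for BCL2A1 was not the same in every condition. With siCHD9siHic5 its SD, here of CPM and not of logs, was 1.13 in dex and 0.306 in vehicle. With siBRMsiNS its dex libraries, at 2.70, 2.40 and 5.26 CPM, spanned a larger fold than its vehicle libraries, at 6.84, 4.52 and 8.98 CPM. The SD of log2(CPM + 0.5) between replicates, pooled over the 6 conditions, was 0.91 with dex and 2.21 with vehicle for CXCL8, 0.58 and 1.21 for CCL2, and 0.66 and 1.06 for CSF2. The median over tested genes was 0.22 with both. The ratio of the dex to the vehicle SD was 0.411 for CXCL8, and 0.349% of tested genes had a ratio as low; for CCL2 the share was 0.837%, and for BCL2A1 27.8%. With siCHD9siHic5, CXCL8 vehicle libraries held 41.7, 391 and 12.5 CPM, and their dex partners 35.7, 50.4 and 10.6 CPM. With siBRMsiHic5 the vehicle libraries held 347, 14.4 and 87.9 CPM and the dex partners 13.3, 8.96 and 19.2 CPM. The vehicle library with the most CXCL8 was replicate 2 in 4 conditions and replicate 1 in siBRMsiNS and siBRMsiHic5. Libraries high in CXCL8 were therefore not the same number in every condition, and CCL2 was highest in the same library of each condition as CXCL8. The difference in spread was seen in the values and was not tested.

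**Figure D5:**
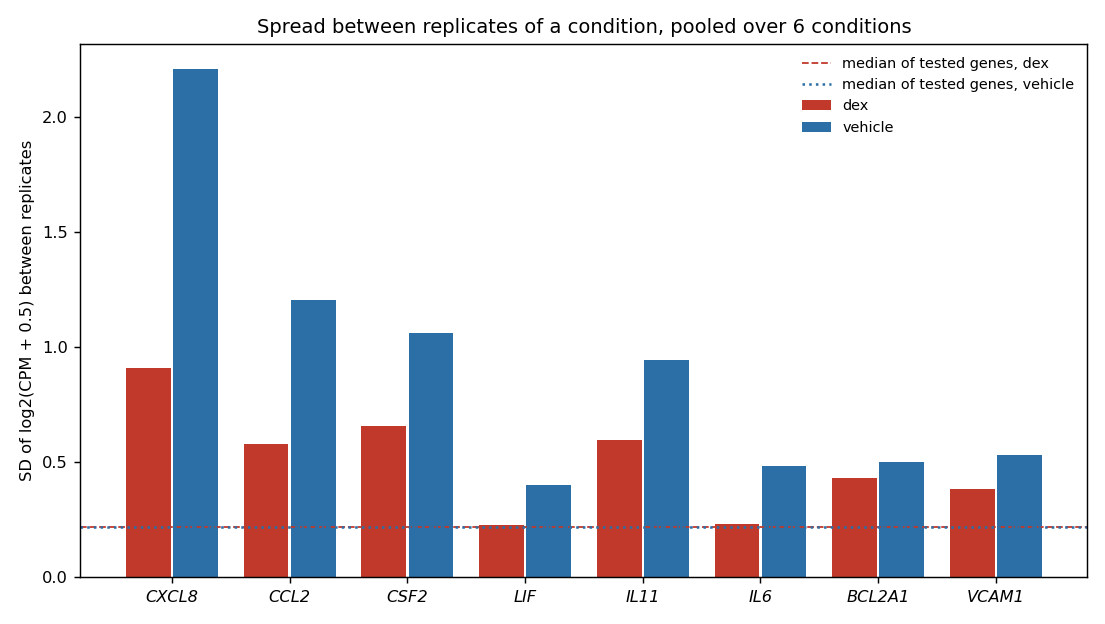
SD of log2(CPM + 0.5) between the 3 replicates of a condition, pooled over 6 conditions, for dex (red) and vehicle (blue) libraries of each gene; lines give the medians over tested genes. CXCL8 had 0.91 with dex and 2.21 with vehicle, and the bars of IL6 and VCAM1 lie at levels near the 0.5 CPM added, where the SD is compressed.

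The 8 genes did not move as a single block across libraries. Over the 36 libraries, which share depth, siRNA condition and treatment in sets, CSF2 and LIF had Pearson's r of 0.81, CCL2 and CXCL8 0.80 and CXCL8 and IL11 0.78, given as descriptions. Within the 18 dex libraries alone these were 0.75, 0.36 and 0.40, and within the 18 vehicle libraries 0.80, 0.85 and 0.83. The tested gene with the pattern most like CCL2 was NFKB1 (r = 0.919), that most like CXCL8 was IER2 (0.880), and those most like CSF2, LIF and IL11 were LFNG (0.837), KCTD11 (0.857) and SDC4 (0.850). IL6 was closest to MYO10 (0.714), BCL2A1 to OCIAD2 (0.879) and VCAM1 to JAK3 (0.896). Other members appeared among the 3 closest genes in 2 cases: LIF was the third closest to CSF2 and to IL6.

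Genes of the surrounding pathways were read from fixed lists, for the mean dex response. Of 31 tested other inflammatory genes, 0 rose and 3 fell without the block and 4 rose and 8 fell with it, with a list median of -0.19 without the block. TNFSF15, a TNF-family ligand, fell by 0.92 ± 0.20 (adjusted p = 0.00245), PLAU, the urokinase protease, by 0.79 ± 0.20 (0.0139) and the collagenase MMP1 by 1.18 ± 0.32 (0.0192). MMP1 had only 0 to 42 counts in a dex library and 3 to 75 in a vehicle library, close to the detection limit. SAA1, an acute-phase protein, rose by 0.30 with the block (adjusted p = 0.000145). Of all tested genes, 4.05% rose and 1.73% fell without the block, and 14.4% rose and 12.9% fell with it, which is the background for each list that follows.

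Among 15 tested genes of gp130 signalling other than LIF, IL11 and IL6, 2 rose and 2 fell without the block and 5 rose and 4 fell with it. The kinase JAK1 rose by 0.27 ± 0.05 (adjusted p = 0.000524), and BCL3, an IκB family member, fell by 0.92 ± 0.22 (0.00875). Of 7 receptors of the other proteins 1 rose, ACKR1, a decoy receptor for chemokines, by 0.45 ± 0.11 (0.00607). Of 14 BCL2 family genes other than BCL2A1, 1 rose without the block, BCL2L1, an anti-apoptotic gene, by 0.32 ± 0.08 (0.0108), and 1 rose and 2 fell with it.

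Of 13 tested genes known for anti-inflammatory induction by glucocorticoids, 5 rose and 0 fell without the block, and 8 rose and 2 fell with it. TSC22D3, which encodes GILZ, rose by 1.75 ± 0.10 (adjusted p = 5.07e-13) and FKBP5, a GR cochaperone, by 1.51 ± 0.11 (7.05e-11). ANXA1, also on the list, fell by 0.18 with the block. Of 22 NF-κB, AP-1 and C/EBP genes, 1 rose and 6 fell without the block and 2 rose and 11 fell with it. JUN fell by 0.62 ± 0.13 (adjusted p = 0.00288), NFKB1 by 0.58 ± 0.16 (0.0247) and NFKBIE by 0.65 ± 0.18 (0.0229), and CEBPD rose by 0.61 ± 0.11 (0.000297). Of 8 decay factors of AU-rich transcripts, ZFP36 was the 1 called without the block and rose by 0.68 ± 0.19 (0.0257), while 3 rose and 2 fell with it. NR3C1, which encodes GR, fell by 0.23 ± 0.06 (adjusted p = 0.018). Of the 5 endothelial markers 1 rose and 0 fell without the block: KDR rose by 2.38 ± 0.23, while PECAM1, CDH5, VWF and TEK did not pass. Of the 3 epithelial markers 0 rose and 1 fell, CDH1 by 0.65 ± 0.17, while EPCAM and KRT18 did not pass. Of 5 leukocyte and 6 osteoblast and mesenchyme markers 0 passed without the block; their part in the results on the 8 genes was not tested.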

How the data were processed

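Total RNA of 36 cultures was sequenced, and the authors deposited 1 table of counts per gene, 15186 genes by 36 libraries. The deposited values are whole-number counts, although the table's name speaks of normalised CPM. Per the submitters' processing notes the tools were TopHat2 2.1.1 and edgeR and the build GRCh38; counter and annotation: not given in the sources used here.

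Counts were tested in R 4.3.3 with edgeR 4.0.16 (quasi-likelihood, robust, upper-quartile factors), keeping 15179 genes above 1 CPM in at least 3 libraries, with 12 group means, and again with a block for each of 18 vehicle-dex pairs. CPM values are scaled by the same factors. The residuals of paired libraries correlated at 0.458 to 0.922, over 0.1 in 18 of 18 pairs, which is where the pairing comes from. Vehicle libraries with the same number correlated at -0.213 to 0.722 with those of siNSsiNS, over 0.1 in 12 of 15, and were not treated as paired. Replicates were made on different days, so p-values of the fit without the block include the spread in level between days. The pair block takes that level out, so its p-values include only the spread of the dex response between pairs. From each list the text names at most 4 called genes of smallest adjusted p in either fit. The members, lists and rules were chosen with earlier results of these data known. Alternatives used limma 3.58.1, DESeq2 1.42.0, other scaling and filters, and left-out libraries. The fits were tested on simulated data.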

Additional observations from a re-analysis of the deposited data

How the results depend on the processing

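Apart from fits that left out 1 library or pair, the alternatives for single genes gave the same call in the same direction 318 times, brought a gene past the threshold 22 times, took one below it 15 times, and turned its direction 0 times. Leaving out 1 library kept the call 437 times and took it below the threshold 22 times. Leaving out 1 pair under the replicate block brought a gene past the threshold 38 times and otherwise gave the call of the fit without the block. With the replicate block for each pair, the number of the 8 genes called for dex was 4 with siHic5siNS, 3 with siCHD9siNS, 1 with siBRMsiNS, 1 with siCHD9siHic5, 4 with siBRMsiHic5 and 1 with siNSsiNS. A block for the replicate number over all libraries gave 7 for the mean response. With genes kept above 5 CPM, which drops IL6 and VCAM1, 1 was called in vehicle for siCHD9siHic5 against siNSsiNS, 1 for siCHD9siHic5 and 1 for siBRMsiHic5 against siHic5siNS. Without the libraries over 1% RNA28S5, 0 were called for dex with siHic5siNS, and in vehicle 2 for siHic5siNS and 0 for siBRMsiNS against siNSsiNS and 0 for siCHD9siHic5 against siHic5siNS; with the block, 2 for dex with siHic5siNS, 5 with siCHD9siNS and 2 with siBRMsiHic5, where 1 pair remains and is assumed to vary like the other conditions. These exclusions were added after seeing the data. With only the groups compared, 0 were called for dex with siHic5siNS, and in vehicle 2 for siHic5siNS, 0 for siBRMsiNS and 1 for siCHD9siHic5 against siNSsiNS and 0 for siCHD9siHic5 and 1 for siBRMsiHic5 against siHic5siNS. DESeq2 called 1 for dex with siBRMsiHic5. Fewer libraries or genes enter several of these fits, and beyond that the cause was not tested. For these fits, and those that leave out 1 library or pair, no share of all tested genes is given. Changes in these counts are therefore not read as results about the 8 genes.

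Leaving out 1 library gave 7 to 7 for the mean dex response, 0 to 1 for dex with siHic5siNS and 0 to 0 for dex with each other condition. In vehicle it gave 2 to 4 for siHic5siNS, 1 to 1 for siCHD9siNS, 0 to 4 for siBRMsiNS, 1 to 2 for siCHD9siHic5 and 2 to 4 for siBRMsiHic5 against siNSsiNS, and 0 to 2 for siCHD9siHic5 and 1 to 4 for siBRMsiHic5 against siHic5siNS. Leaving out 1 pair under the replicate block gave 7 to 8 for the mean, 2 to 4 with siHic5siNS, 1 to 3 with siCHD9siNS, 0 to 0 with siBRMsiNS, 1 to 1 with siCHD9siHic5, 2 to 4 with siBRMsiHic5 and 0 to 0 with siNSsiNS. At 0 to 61 counts a library, IL6 and VCAM1 are limited by depth.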
